A study of Mus musculus with 36 samples.

Results

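The myelinated optic nerve (MON) was examined 2 weeks (2W) after microbeads had been injected into the anterior chamber of the mouse eye to raise intraocular pressure. The 4 libraries compared, of 36 in the whole series and 12 of MON, were chosen by their column labels in the gene count table: the male and the female 2W glaucoma MON libraries, and the female and the male naïve MON libraries. The series holds RNA-seq of retina, unmyelinated optic nerve (UON) and MON from naïve mice, from mice 3 days (3D), 2W and 6 weeks (6W) after bead injection, and from mice 3D and 2W after optic nerve crush. It was designed to compare the responses of the different nerve regions to these injuries. All mice were C57BL/6 aged 2 to 4 months. Beads were injected into 1 eye only, the naïve mice had no procedure in either eye, and crushed nerves were squeezed briefly with forceps behind the eye. MON was the first myelinated piece of nerve behind the myelin transition zone, and the transition zone itself was discarded. Bead and crush surgery was done under ketamine, xylazine and acepromazine with erythromycin ointment on both eyes, and all mice received the same anesthetics at collection. Each library held equal amounts of RNA from 2 mice of 1 sex, so every group had n = 2 pools, 1 female and 1 male, and the spread between single mice was averaged within a pool. Pressure in these eyes differs from animal to animal, and the pools cannot show that spread.

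The optic nerve carries the axons of retinal ganglion cells, whose cell bodies lie in the retina. In its myelinated part the axons are wrapped by oligodendrocytes and share the tissue with astrocytes, microglia, precursor cells and vessels. Microglia that meet myelin or axon debris are known to leave their resting gene program and to express genes of phagocytosis, lysosomes and antigen presentation, among them Clec7a, Cst7, Lpl and Itgax. RNA of ganglion cell genes in a piece of nerve can come from axons or from local cells, and in bulk samples fewer cells of a type and less RNA per cell cannot be told apart.

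The libraries held the RNA of myelinated nerve. Mbp, the gene of myelin basic protein, was at 33550 and 31460 FPKM (the deposited unit that scales fragments by gene length and library size) in the female and male 2W glaucoma pools and at 38610 and 34500 in the female and male naïve pools. Gfap, the intermediate filament of astrocytes, was at 4017 and 4074 FPKM at 2W and at 3424 and 2760 in naïve nerve.

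A pair of libraries stood apart from the other MON libraries by surface epithelium genes, and 1 of them was the male 2W glaucoma pool. The 43 listed genes, which include keratins of stratified epithelium, the water channel gene Aqp3 and the transcription factor gene Elf3, summed to 4004 CPM (counts scaled to a common library size) in the male 2W pool and to 4869 in the female 6W pool. In the other 10 MON libraries they summed to between 44.8 and 138.6 CPM. In the male 2W pool 26 of the 43 were over 10 CPM and 0 were at 0, whereas the female 2W pool had 1 over 10 CPM and 14 at 0. Krt15 was at 1401 CPM in the male 2W pool and 2.49 in the female, Krt4 at 306 and 1.93, Krt5 at 177 and 0.643, Krt13 at 161 and 0.803, and Aqp3 at 102 and 0.0803. Krt12, the keratin gene typical of corneal epithelium, was at 0.166 CPM in the male 2W pool and at 1.01 in the female 6W pool. In UON the sums ran from 125.8 to 495.4 CPM, with the male 2W glaucoma pool highest. The main counts below are given also without both epithelium-rich libraries, which leaves the female pool alone at 2W and the male pool alone at 6W.

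**Figure D1:**
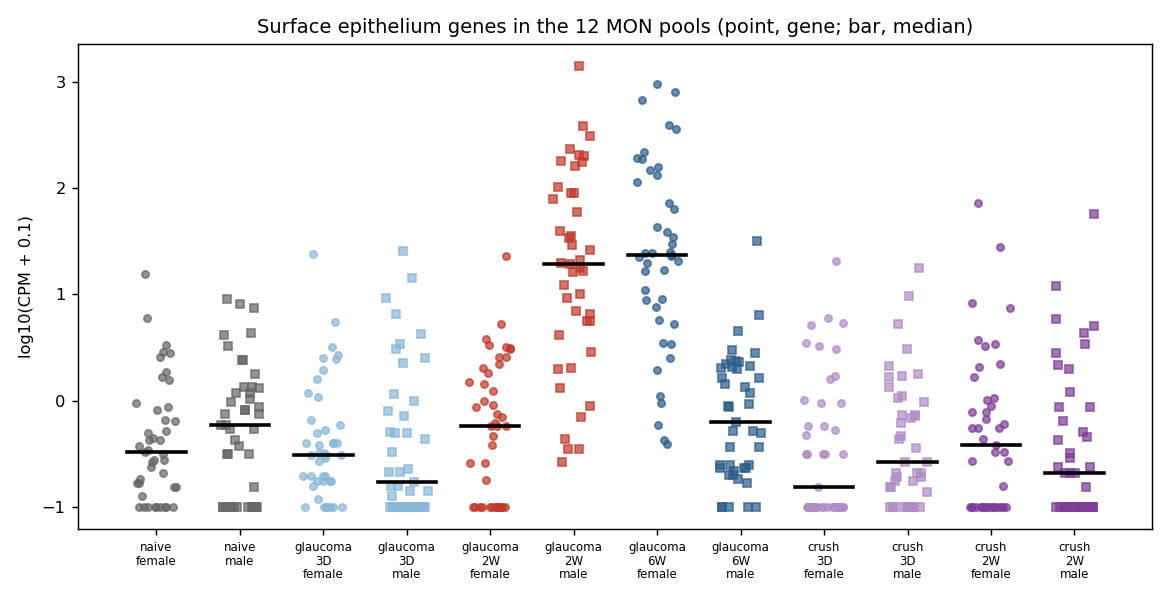
Levels of the 43 surface epithelium genes in the 12 MON libraries, as log10(CPM + 0.1); each point is a gene and each black bar the median of a library. The medians of the male 2W glaucoma (19.4 CPM) and female 6W glaucoma (23.3 CPM) libraries lie more than an order of magnitude above the others, whose highest is 0.533 CPM.

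Total counts, in mega counts (M), were 23.3 M and 47.7 M in the female and male 2W pools and 78.1 M and 17.8 M in the female and male naïve pools, and 16.3 M to 76.7 M in the other MON libraries. The shallowest of the compared libraries is thus the male naïve pool, and the group labels do not follow depth. The 18 housekeeping genes differed by a median of -0.09 on the log2 scale between 2W glaucoma and naïve, and all 22960 genes tested by a median of 0.000874.

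Between 2W glaucoma and naïve MON, edgeR's quasi-likelihood test with naïve, 3D, 2W and 6W libraries in the fit and sex as a term called 0 genes higher and 0 lower at an adjusted p under 0.05 and a fold beyond 2, a background of 0% in each direction. The smallest adjusted p was 0.124, and 2017 genes had an unadjusted p under 0.05. The smallest adjusted p belonged to mitochondrial RNAs such as mt-Rnr1, which was at 717 CPM in the female 2W pool, 886 in the female 3D pool and 0 in the other MON libraries, and this switching between pools leaves mitochondrial calls unusable. Of all genes tested, 3.31% were at least 2-fold higher and 1.60% at least 2-fold lower at that unadjusted p. DESeq2 with the same model and limits called 373 genes higher, 1.93% of the 19299 it tested, and 138 lower, 0.715%. Of these 511 genes, 508 were tested by edgeR and 501 of them had an edgeR p under 0.05. In 500 the difference had the same direction in the female and the male pools. The 511 genes were selected on these same pools, so neither count is independent support for the calls. The DESeq2 calls are used below to describe the gene groups, beside the edgeR estimates, and none of them passed edgeR's adjusted limit. The shares of 1.93% and 0.715% are the background for each count of list genes that DESeq2 called against naïve with all libraries. Lists share genes, so their counts are not independent of each other. Itgax is on the phagocytic microglia, complement and integrin lists, and Ccl3 and Ccl4 are on the phagocytic microglia and chemokine lists. Cx3cr1 is on the homeostatic microglia and chemokine lists, and C3 on the A1 astrocyte and complement lists.

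The counts of calls depended on single pools. Without the male 2W pool DESeq2 called 98 genes higher and 75 lower, and without the female 2W pool 181 and 58. Without both epithelium-rich libraries it called 44 higher (0.177% of 24811 tested) and 75 lower (0.302%), of which 33 and 21 were also called with all libraries. A group left with a lone pool is assumed to vary like the others. These fits also have fewer libraries to estimate the spread, so a lost call does not by itself mean a smaller difference. edgeR called 82 genes without the female 2W pool, 5 without the male 2W pool, 1 without the female naïve pool and 15 to 20 when a 3D or 6W library was left out. Among the 373 genes that DESeq2 called higher, 34 were over 4-fold higher in the male 2W pool than in the female, and 27 of these were also over 4-fold higher in the female 6W pool than in the male 6W pool. Dsc2 (desmocollin 2), the gene of this kind with the largest DESeq2 fold, was at 45.2 CPM in the male 2W pool, 52.4 in the female 6W pool and 0.562 in the female 2W pool, and at 0 in both naïve pools. Upk1b (uroplakin 1b) was at 141 CPM in the male and 2.61 in the female 2W pool. Apart from Ifit1bl1, genes of this pattern are not described further, and their part in the tests was not tested.

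Genes of phagocytic, or disease-associated, microglia formed the list with the largest share of calls among the 52. All 26 listed genes were tested, with a median log2 fold change of 1.60. The median was 1.72 with the epithelium-rich libraries left out. Both 2W pools lay above both naïve pools for 24 of the 26, against 20.8% of all genes tested. DESeq2 called 16 higher and 0 lower, and 6 of these (Ccl4, Clec7a, Lpl, Cst7, Itgax and Ccl3) also without the epithelium-rich libraries. At an edgeR p under 0.05 and over 2-fold, 19 were higher and 0 lower.

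Clec7a (chr6:129461591-129472779, minus strand, GRCm38), the gene of the beta-glucan receptor dectin-1, was at 3.59 CPM in the female and 3.61 in the male naïve pool, and at 39.0 and 22.6 CPM in the female and male 2W pools. The 2W pools did not overlap the naïve pools, and the log2 fold change was 3.00 ± 0.46 (SE, n = 2 pools a group; edgeR adjusted p = 0.232, DESeq2 adjusted p = 2.28e-07). Cst7 (chr2:150570415-150578944), the cystatin F gene of lysosomal protease control, was at 3.27 and 7.82 CPM in the female and male naïve pools and at 67.0 and 33.6 in the 2W pools, without overlap (log2 fold change 3.07 ± 0.57; edgeR adjusted p = 0.293, DESeq2 adjusted p = 4.94e-06). Lpl (lipoprotein lipase, chr8:68880491-68907448) was at 3.98 and 6.39 CPM in naïve nerve and at 157 in the female but 35.1 in the male 2W pool. Itgax, the integrin alpha X (CD11c) gene, had the same form, with 0.737 and 2.79 CPM in naïve nerve, 41.5 in the female and 11.9 in the male 2W pool. The male 2W pool thus had the smaller difference in these genes. In the whole list 22 of 26 genes were higher in the female than in the male 2W pool, against 46% of all genes tested. Sex, pool and epithelial RNA cannot be told apart in these 2 libraries, and the part of each was not tested.

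More abundant genes of the list differed by smaller factors. Ctsd, the gene of the lysosomal protease cathepsin D, was at 1686 and 1625 CPM in the naïve pools and at 6461 and 3713 in the female and male 2W pools (log2 fold change 1.52 ± 0.31; edgeR adjusted p = 0.293, DESeq2 adjusted p = 0.000208). Lgals3 (galectin-3) was at 203 and 256 CPM in naïve nerve and at 749 and 738 at 2W, the 2 sexes being close together in each group (log2 fold change 1.67 ± 0.27; edgeR adjusted p = 0.232, DESeq2 adjusted p = 3.31e-06). On the length-scaled scale Ctsd reached 2955 and 1674 FPKM at 2W, Lgals3 538 and 490 FPKM, and Clec7a 49.2 and 24.9 FPKM. Cd68, a lysosomal membrane gene of macrophages, was at 39.2 and 49.0 CPM in naïve nerve and at 213 and 112 at 2W. Axl, a receptor for the uptake of dying cells, was at 165 and 108 CPM in naïve nerve and at 368 and 312 at 2W. DESeq2 called these 4 genes higher with all libraries and none of them without the epithelium-rich libraries.

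Spp1 and Apoe, also on the list, were not called. Spp1 (osteopontin) was at 39.1 and 22.5 CPM in naïve nerve and at 678 and 142 at 2W, and its pools did not overlap, but its edgeR adjusted p was 0.543 and its DESeq2 adjusted p 0.294. Apoe (apolipoprotein E) was at 2720 and 12650 CPM in the female and male naïve pools and at 18190 and 3680 in the 2W pools, so that the groups overlapped and the sexes were opposed.

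**Figure D2:**
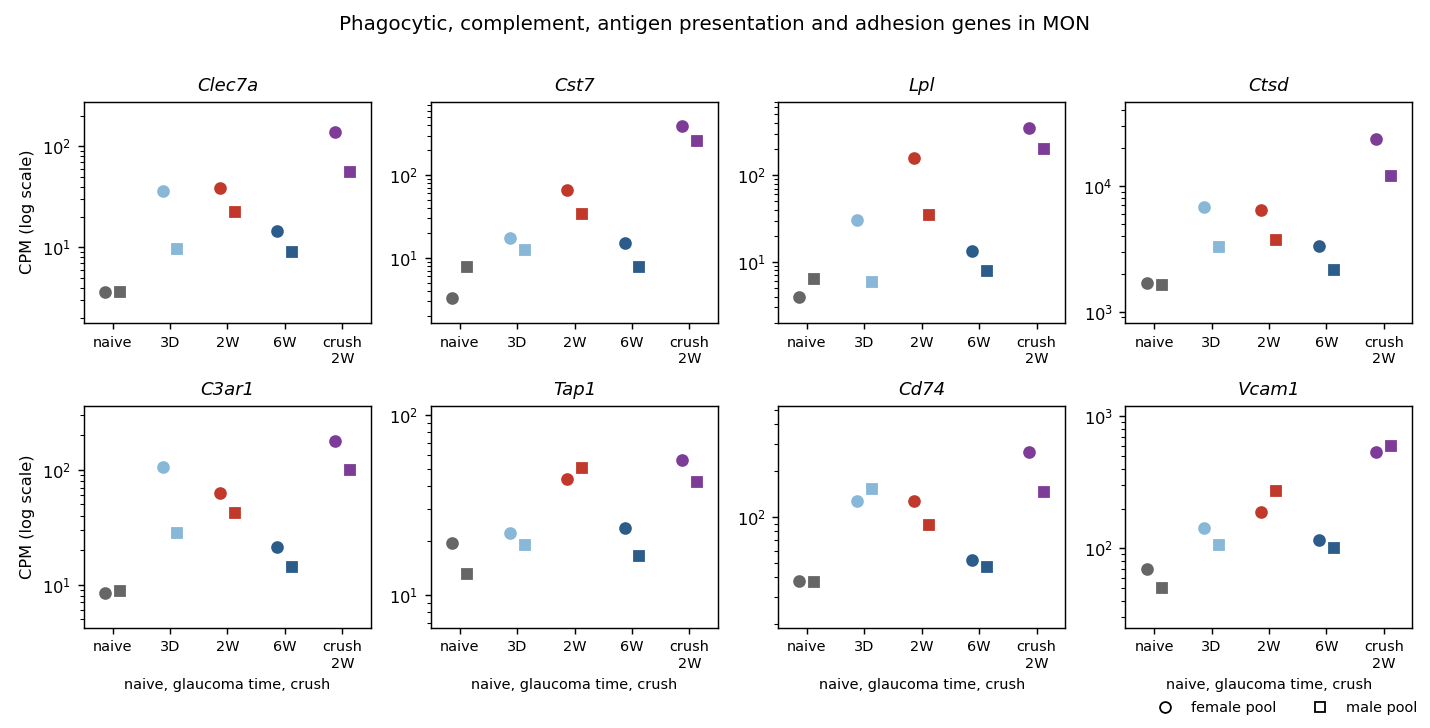
CPM (log scale) of 8 immune genes in each MON pool: naïve, glaucoma at 3D, 2W and 6W, and crush at 2W, with circles for female and squares for male pools. Both 2W glaucoma points lie above both naïve points in every panel, for Clec7a at 39.0 and 22.6 CPM against 3.59 and 3.61.

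Genes that mark resting microglia were less uniform. Of 20 homeostatic microglia genes tested DESeq2 called 5 higher and 0 lower, with a median log2 fold change of 0.78, and 2 of them without the epithelium-rich libraries. Aif1, which encodes the microglial protein Iba1, was at 15.3 and 25.5 CPM in naïve nerve and at 61.7 and 43.5 at 2W, without overlap (log2 fold change 1.37 ± 0.35; edgeR adjusted p = 0.348, DESeq2 adjusted p = 0.0176). Tmem119, a marker gene of resident microglia, was at 158 and 133 CPM in naïve nerve and at 143 and 164 at 2W, and P2ry12, the microglial ADP receptor gene, was at 29.5 and 16.2 and at 50.2 and 22.1. These 2 genes overlapped between groups, and with the female 2W pool left out the sign of both estimates turned. Cx3cr1, the fractalkine receptor gene, was at 6.07 and 23.1 CPM in naïve nerve and at 388 and 252 at 2W, but its level also switched between pools of 1 group, with 597 CPM in the female and 23.8 in the male 2W crush pool, so its call is uncertain.

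Surface receptors of myeloid cells were also higher. Over all genes tested, 20.8% had both 2W pools above both naïve pools. Of 23 Fc receptor and myeloid surface genes tested, 22 had both 2W pools above both naïve pools, the median log2 fold change was 1.12, and DESeq2 called 9 higher and 0 lower, 1 of them (Tlr2) without the epithelium-rich libraries. Tlr2, a sensor of bacterial lipoproteins and tissue damage, was at 14.2 and 13.6 CPM in the naïve pools and at 67.8 and 35.1 at 2W (log2 fold change 1.80 ± 0.28; edgeR adjusted p = 0.232, DESeq2 adjusted p = 6.96e-06). Ptprc (CD45), the pan-leukocyte gene, was at 15.7 and 21.2 CPM in naïve nerve and at 70.0 and 34.7 at 2W, and Itgb2, the shared beta chain of leukocyte integrins, at 41.3 and 30.1 and at 133 and 68.6. Both were higher in both 2W pools than in both naïve pools. The median of the Fc receptor and myeloid surface list was 1.455 with the epithelium-rich libraries left out.

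Genes of border and infiltrating macrophages were at low levels. DESeq2 called 2 of 18 higher and 0 lower, with a median log2 fold change of 0.91, and 1 (Ms4a7) without the epithelium-rich libraries. Ms4a7 was at 0.641 and 0 CPM in the naïve pools and at 6.35 and 12.5 in the female and male 2W pools. Ccr2, the chemokine receptor gene of monocytes, was at 0.396 and 0.273 CPM in naïve nerve and at 3.33 and 2.71 at 2W (log2 fold change 3.13 ± 0.67; edgeR adjusted p = 0.293, DESeq2 adjusted p = 0.00161). Among chemokines, their receptors and related genes DESeq2 called 8 of 29 higher and 1 lower, and 5 higher and 1 lower without the epithelium-rich libraries. Ccl4, a chemokine that attracts leukocytes, was at 2.59 and 1.97 CPM in naïve nerve and at 55.5 in the female and 12.7 in the male 2W pool (log2 fold change 3.47 ± 0.55; edgeR adjusted p = 0.232, DESeq2 adjusted p = 6.98e-08). Cxcl16 was at 19.9 and 22.6 CPM in naïve nerve and at 92.1 and 62.6 at 2W, without overlap.

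In the complement list DESeq2 called 4 of 21 genes higher and 0 lower, with a median log2 fold change of 0.88. C3ar1, the receptor gene for the C3a fragment, was at 8.44 and 8.85 CPM in naïve nerve and at 63.3 and 41.8 at 2W (log2 fold change 2.51 ± 0.45; edgeR adjusted p = 0.293, DESeq2 adjusted p = 1.47e-05). C3, the central complement component, was at 210 and 249 CPM in naïve nerve and at 367 and 856 at 2W, with the male pool highest. Without the epithelium-rich libraries DESeq2 called 1 gene of the list higher, Itgax.

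Genes of MHC class I antigen presentation were higher in both sexes. The share of all genes tested with both 2W pools above both naïve pools was 20.8%. For all 16 genes tested both 2W pools lay above both naïve pools, the median log2 fold change was 0.97, and DESeq2 called 8 higher and 0 lower, but 0 without the epithelium-rich libraries, where the median was 0.84. Tap1 (chr17:34187553-34197225), which moves peptides into the endoplasmic reticulum, was at 19.3 and 13.1 CPM in the naïve pools and at 44.2 and 50.6 at 2W (log2 fold change 1.56 ± 0.26; edgeR adjusted p = 0.236, DESeq2 adjusted p = 7.77e-05). H2-D1, a classical class I heavy chain, was at 650 and 653 CPM in naïve nerve and at 1337 and 1490 at 2W, and Psmb8, an immunoproteasome subunit, at 38.7 and 40.5 and at 86.0 and 124. The sexes differed by less than the groups did in these genes. Reads of H2-D1 and its near-identical class I relatives may have been split by the counting.

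For MHC class II the median log2 fold change over 11 genes was 0.89, and DESeq2 called 3 higher (Cd74, H2-Ab1 and H2-DMb1) and 0 lower, with 0 calls without the epithelium-rich libraries. Cd74, the invariant chain, was at 38.2 and 37.6 CPM in naïve nerve and at 126 and 88 at 2W (log2 fold change 1.47 ± 0.24; edgeR adjusted p = 0.235, DESeq2 adjusted p = 3.85e-05). The naïve pools were within 1 CPM of each other and the 2W pools stood clear of them.

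Interferon-stimulated genes were mostly higher in the male than in the female 2W pool, with 4 of 32 higher in the female. Their median log2 fold change was 1.02, and DESeq2 called 7 of 32 higher and 0 lower. Both 2W pools lay above both naïve pools for 19 of the 32, against 20.8% of all genes tested. The list summed to 1466 and 614.9 CPM in the female and male naïve pools and to 1582 and 2479 at 2W. The female pools were thus close, and the median rests mostly on the male pools. Without the epithelium-rich libraries the median was 0.65 and 0 were called. Oas1a, a sensor of double-stranded RNA, was at 6.40 and 3.72 CPM in the female and male naïve pools and at 13.2 and 21.7 in the 2W pools (log2 fold change 1.74 ± 0.41; edgeR adjusted p = 0.329, DESeq2 adjusted p = 0.00515). Gbp2, a guanylate-binding protein gene, was at 70.0 and 36.5 CPM in naïve nerve and at 105 and 200 at 2W. Isg15, the ubiquitin-like interferon product, was at 11.6 and 5.03 CPM in naïve nerve and at 11.8 and 24.1 at 2W, so that the female pools were nearly equal. Ifit1bl1, a related gene outside the list, was at 367 CPM in the male 2W pool and 83.6 in the female 6W pool, the 2 libraries with epithelial RNA, and at 4.46 in the female 2W pool. It was chosen after its values were seen, and the part of the epithelial RNA in the interferon genes was not tested.

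Many promoters of these genes share a short sequence. The interferon-stimulated response element was searched as 2 copies of TTTC with any 2 bases between them, on both strands, in 300 bases around each RefSeq gene start, 250 upstream and 50 downstream (GRCm38.p6). Of the 32 interferon genes, 22 had a promoter in the RefSeq table, and 16 of these (72.7%) held the letters, against 3.99% of 27025 genes. Among the genes DESeq2 called higher at 2W the share was 7.81% (21 of 269 with a promoter), and among those called lower 2.13%. The element is shown for 5 of the 7 interferon genes that DESeq2 called higher, chosen because they hold it before the gene start. Other genes of the list held it and were not called, among them Isg15, Ifit1 and Rsad2, so it does not mark the called genes. Each line gives 30 bases 5′ to 3′ on the gene's strand, with the matched letters in capitals, which are either the searched letters or their reverse complement.
Oas1a, chr5:120907526-120907555 (minus strand): cccttctcggGAAATGGAAActgaaaatct
Oas3, chr5:120777715-120777744 (minus strand): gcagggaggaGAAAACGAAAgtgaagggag
Gbp2, chr3:142620594-142620623 (plus strand): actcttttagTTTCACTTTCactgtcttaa
Gbp3, chr3:142559989-142560018 (plus strand): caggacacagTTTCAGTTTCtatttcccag
Trim30a, chr7:104465210-104465239 (minus strand): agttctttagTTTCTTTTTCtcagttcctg
These matches lie 20 (Oas1a) to 75 (Oas3) bases before the gene start. They describe the sequence and are not measured binding sites. The PU.1 letters GAGGAAGT, named for a transcription factor of myeloid cells, were searched in the same way. They were in 9.29% (25 of 269) of the promoters of genes that DESeq2 called higher and in 3.69% of all genes, and in 3.19% of those called lower. Of the phagocytic microglia genes 1 of 20 (5%) held them, and of the Fc receptor and myeloid surface genes 3 of 17 (17.6%). In the interferon and MHC class I lists 0 of 22 and 0 of 14 did. Overlaps between the different motifs were not removed.

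Among 30 genes of interleukin-1, TNF and Toll-like receptor inflammation, with a median log2 fold change of 1.12, DESeq2 called 9 higher and 0 lower, 1 of them without the epithelium-rich libraries. Vcam1, an adhesion molecule for leukocytes, was at 69.4 and 50.1 CPM in the naïve pools and at 188 and 272 at 2W (log2 fold change 1.95 ± 0.29; edgeR adjusted p = 0.232, DESeq2 adjusted p = 4.15e-07). Il1a was at 2.99 and 1.58 CPM in naïve nerve and at 13.3 and 8.16 at 2W. Tnfrsf11b (osteoprotegerin, a soluble TNF-family decoy receptor) had 5.85 and 3.28 CPM in naïve nerve and 26.8 and 24.1 at 2W (log2 fold change 2.51 ± 0.28; edgeR adjusted p = 0.176, DESeq2 adjusted p = 1.11e-11).

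Of 32 genes of gp130 cytokines and JAK-STAT signaling DESeq2 called 8 higher and 0 lower, and 1 higher and 1 lower without the epithelium-rich libraries. Osmr, the oncostatin M receptor gene, was at 34.4 and 26.9 CPM in the naïve pools and at 103 and 89.6 at 2W (log2 fold change 1.64 ± 0.27; edgeR adjusted p = 0.232, DESeq2 adjusted p = 2.68e-05). Stat3, the transcription factor downstream of these receptors, was at 228 and 191 CPM in naïve nerve and at 256 and 252 at 2W, and Socs3, its feedback inhibitor, at 19.7 and 17.3 and at 34.1 and 31.3. Neither was called. Atf3, a stress and nerve injury transcription factor, was at 15.4 and 13.9 CPM in naïve nerve and at 63.6 and 39.1 at 2W (log2 fold change 1.77 ± 0.26; edgeR adjusted p = 0.232, DESeq2 adjusted p = 5.03e-06). Junb, Egr1, Egr2 and Ccn1, the other immediate early genes that DESeq2 called, were also higher, 5 of 28 in all with 0 lower. Leaving out the epithelium-rich libraries, 1 gene of this list was called higher and 1 lower.

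Astrocyte genes gave a mixed picture. Gfap was at 10880 and 8164 CPM in the naïve pools and at 10940 and 12120 at 2W (log2 fold change 0.26 ± 0.29; edgeR adjusted p = 0.848, DESeq2 adjusted p = 0.794). DESeq2 called 3 of 14 genes of the PAN-reactive astrocyte list higher, 4 of 13 of the A1 list (H2-D1, Psmb8, C3 and Gbp2) and 2 of 13 of the A2 list, 0 lower in each, and 0 in any of the 3 lists without the epithelium-rich libraries. The 4 called A1 genes are antigen presentation, complement and interferon genes that microglia also express. S1pr3, a sphingosine-1-phosphate receptor gene of the PAN-reactive list, was at 705 and 368 CPM in naïve nerve and at 1274 and 1750 at 2W. Of 18 homeostatic astrocyte genes DESeq2 called 0 higher and 2 lower, Gjb6 and Aldoc. Gjb6 (connexin 30) was at 43.4 and 33.8 CPM in naïve nerve and at 10.7 and 12.8 at 2W (log2 fold change -1.77 ± 0.35; edgeR adjusted p = 0.293, DESeq2 adjusted p = 0.000636), and neither was called without the epithelium-rich libraries.

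Genes that respond to glucocorticoid hormones had more calls in the downward direction than any other of the 52 lists. Of 25 tested, DESeq2 called 9 lower and 0 higher, and 6 lower without the epithelium-rich libraries. Their median log2 fold change was -0.87, and both 2W pools lay below both naïve pools for 18 of the 25, against 19.4% of all genes tested. Zbtb16 (chr9:48654297-48836222, minus strand), a transcription factor induced by glucocorticoids, was at 63.8 and 86.5 CPM in the naïve pools and at 12.4 and 11.2 at 2W (log2 fold change -2.64 ± 0.39; edgeR adjusted p = 0.232, DESeq2 adjusted p = 6.98e-08). Hif3a was at 12 and 14.2 CPM in naïve nerve and at 0.924 and 2.13 at 2W, the largest fold of the list (log2 fold change -3.21 ± 0.48; edgeR adjusted p = 0.232, DESeq2 adjusted p = 9.36e-08). Tsc22d3, which encodes the glucocorticoid-induced leucine zipper protein, was at 261 and 231 CPM in naïve nerve and at 83.5 and 117 at 2W (log2 fold change -1.33 ± 0.23; edgeR adjusted p = 0.259, DESeq2 adjusted p = 2.40e-05).

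The lower level of these genes was present in both sexes. Plin4 (a lipid droplet protein) was at 91.0 and 94.7 CPM in naïve nerve and at 17.5 and 28.2 at 2W, Klf9 (a transcription factor) at 253 and 255 and at 77.4 and 128, and Sgk1 (a hormone-regulated kinase) at 936 and 777 and at 316 and 395. Fkbp5, the co-chaperone of the glucocorticoid receptor and a classical target, was at 19.8 and 44.4 CPM in naïve nerve and at 17.1 and 10.5 at 2W, and Per1, a clock gene, was at 38.7 and 48.9 and at 36.6 and 20.9. Both were lower in each 2W pool than in the naïve pool of the same sex, but neither was called. The hour of collection is not given in the sources used here, and its part in this group was not tested.

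The glucocorticoid response element was searched in the same promoters, on both strands, as GNACA and TGTNC with any 3 bases between them, N being any base. It was in 3 of 21 (14.3%) of the listed genes with a promoter and in 0.537% of all genes, and in 3.19% of the genes that DESeq2 called lower and 0% of those called higher. Sgk1 was the one gene of the list that both held the letters and was called, and its window is shown for that reason, 29 bases on the gene's strand with the match in capitals.
Sgk1, chr10:21993694-21993722 (plus strand): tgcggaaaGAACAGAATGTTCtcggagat
The match lies 188 bases before a RefSeq start of Sgk1.

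**Figure D3:**
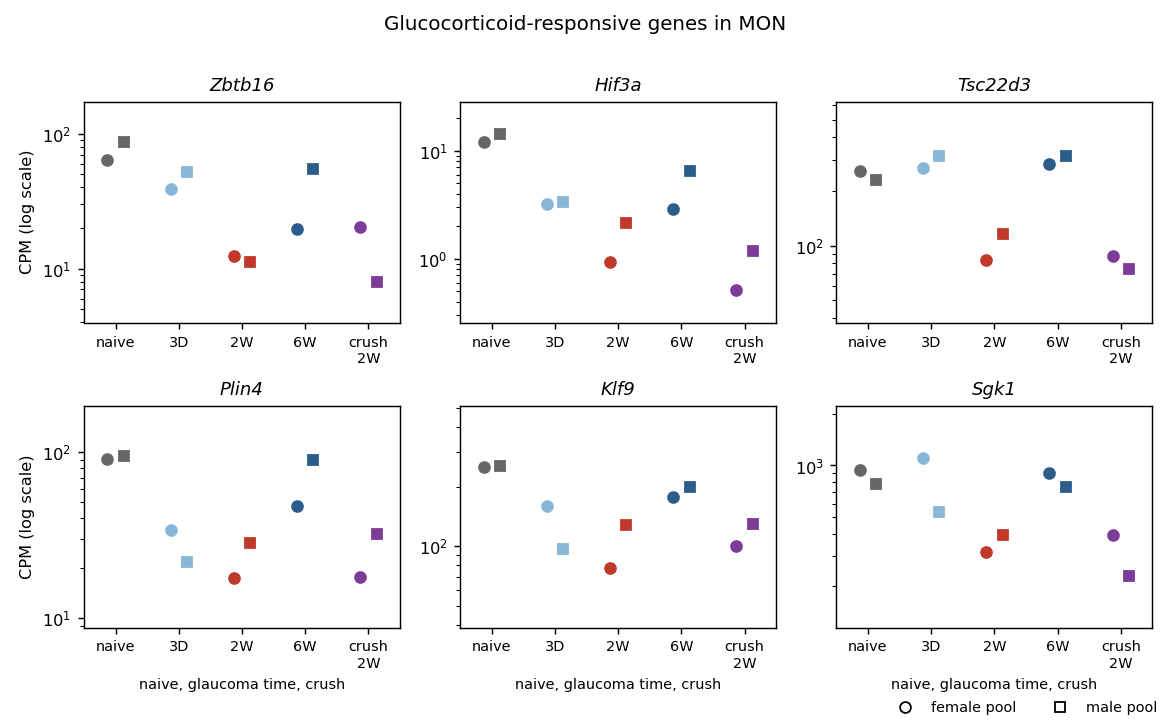
CPM (log scale) of 6 glucocorticoid-responsive genes in each MON pool, with circles for female and squares for male pools. Both 2W glaucoma points lie below both naïve points in every panel, and for Tsc22d3 (83.5 and 117 CPM) they also lie below the 3D and 6W points (271 to 315 CPM).

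Oligodendrocyte and myelin genes were lower by small amounts. Of 20 tested, 14 had both 2W pools below both naïve pools, against 19.4% of all genes tested. The median log2 fold change was -0.63, and DESeq2 called 3 lower (Cldn11, Mal and Sox10) and 0 higher. Without the epithelium-rich libraries it called none of these 3. Mal, a myelin proteolipid, was at 2089 and 2138 CPM in the naïve pools and at 760 and 1343 at 2W (log2 fold change -1.06 ± 0.27; edgeR adjusted p = 0.350, DESeq2 adjusted p = 0.00726). Cldn11, the tight junction gene of myelin, was at 477 and 695 CPM in naïve nerve and at 195 and 262 at 2W. The most abundant myelin gene, Mbp, was at 87360 and 72010 CPM in naïve nerve and at 65170 and 66410 at 2W, a log2 fold change of -0.30 ± 0.31 that was not called. In 19 of 20 genes the female 2W pool was the lower one, and 1 gene was higher in the female.

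Sox10, the lineage transcription factor of oligodendrocytes, was at 301 and 306 CPM in naïve nerve, at 167 in the female and at 36.5 in the male 2W pool, so its call rested mainly on the male pool. In the list of precursors and newly formed oligodendrocytes DESeq2 called 1 of 18 genes lower and 0 higher, and 0 in either direction without the epithelium-rich libraries. Pdgfra, the receptor that marks precursors, was at 79.1 and 55.6 CPM in naïve nerve and at 103 and 42.5 at 2W, with overlap.

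Cholesterol synthesis genes, which are highly active in myelinating cells, were lower as the myelin genes were. Over all 22960 genes tested, 11467 had a negative estimate. Of 25 tested, 24 had a negative estimate, the median log2 fold change was -0.59, and DESeq2 called 5 lower and 0 higher, 1 of them (Stard4) without the epithelium-rich libraries. Fdft1, squalene synthase, was at 279 and 212 CPM in the naïve pools and at 111 and 116 at 2W (log2 fold change -1.11 ± 0.23; edgeR adjusted p = 0.293, DESeq2 adjusted p = 0.00167). Hmgcs1, an early enzyme of the pathway, was at 1069 and 690 CPM in naïve nerve and at 460 and 603 at 2W and was not called.

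Among 21 neurofilament and axonal RNAs the median log2 fold change was -0.73, and DESeq2 called Tubb3 lower and 0 genes higher. Without the epithelium-rich libraries it called 2 lower, Tubb3 and Nefh. Tubb3, neuronal beta-tubulin, was at 344 and 332 CPM in the naïve pools and at 92.2 and 142 at 2W (log2 fold change -1.56 ± 0.34; edgeR adjusted p = 0.293, DESeq2 adjusted p = 0.00126). Nefl, the light neurofilament chain, was at 104 and 62.0 CPM in naïve nerve and at 33.2 and 46.6 at 2W, without overlap, but was not called (edgeR adjusted p = 0.476, DESeq2 adjusted p = 0.0856). Kif5a, an axonal kinesin, was at 10800 and 6159 CPM in naïve nerve and at 4917 and 8425 at 2W, with overlap. Phactr3, a regulator of actin and phosphatase 1 outside these lists, had the smallest DESeq2 adjusted p of the lower genes. It was at 98.4 and 96.8 CPM in naïve nerve and at 15.1 and 25.1 at 2W (log2 fold change -2.33 ± 0.25; edgeR adjusted p = 0.176, DESeq2 adjusted p = 9.91e-13), and it was named after its values were seen.

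Red blood cell genes were lower at 2W, with a median log2 fold change of -2.53 over 6 genes. The list summed to 509.9 and 440.4 CPM in the female and male naïve pools and to 84.5 and 84.2 in the 2W pools. Hba-a1, an alpha-globin gene, was at 191 and 167 CPM in the naïve pools and at 32.2 and 30.5 at 2W. DESeq2 called 0 of the 6 with all libraries and 4 without the epithelium-rich libraries, while edgeR gave 5 with an unadjusted p under 0.05 and over 2-fold lower. In the 6W pools Hba-a1 was at 69.8 CPM in the female and 324 in the male, so its level also varied between pools of 1 group. Globin genes have near-identical copies between which reads can be split, and the part of blood content in the other results was not tested.

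**Figure D4:**
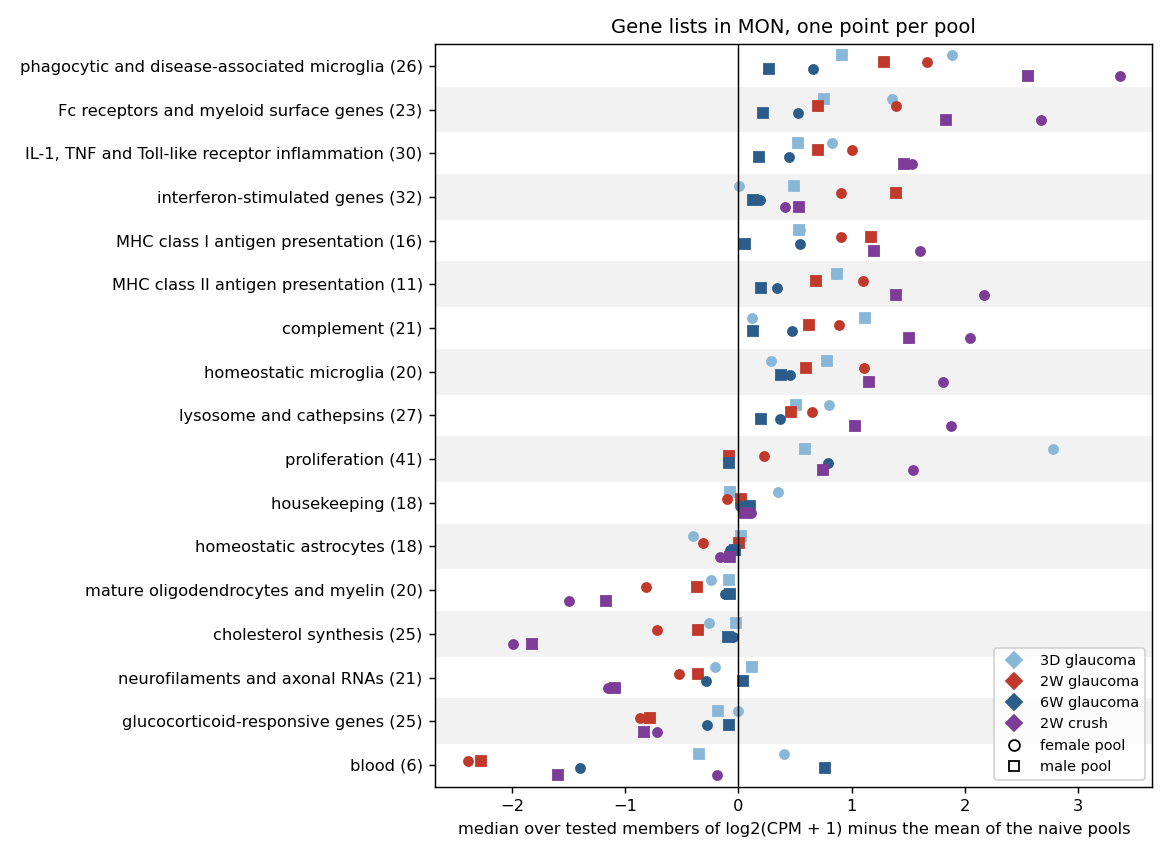
Median over the tested genes of each list (number in brackets) of log2(CPM + 1) minus the mean of both naïve pools, with a point for each 3D, 2W and 6W glaucoma pool and each 2W crush pool (circles female, squares male). At 2W glaucoma the phagocytic microglia list lies at 1.67 (female) and 1.29 (male) and the glucocorticoid list at -0.87 and -0.78.

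The 2W pools were next compared with the 3D pools directly. Both contrasts of time use the same 2W libraries and so are not independent of the one against naïve. edgeR called 0 genes in either direction (0%, smallest adjusted p 0.573, 1156 with an unadjusted p under 0.05). DESeq2 called 80 higher at 2W (0.369%) and 73 lower (0.337%). Without the female 2W pool edgeR called 65 genes, without the female 3D pool 1 and without both epithelium-rich libraries 39, where DESeq2 called 15 higher and 68 lower. Proliferation genes were lower at 2W, with 13 of 41 called lower by DESeq2, 0 higher and a median log2 difference of -2.32, and 8 were called lower without the epithelium-rich libraries. At an edgeR p under 0.05 and over 2-fold 27 of the 41 were lower, against 1.30% of all genes, and 0 higher, against 1.74%. Top2a, the topoisomerase of dividing cells, was at 52.0 CPM in the female and 5.83 in the male 3D pool and at 4.94 and 0.953 at 2W, and Mki67 at 38.1 and 5.81 and at 2.53 and 2.30. The female 3D pool was thus much the higher of the 2 early pools. Against naïve nerve (Top2a 1.69 and 2.79 CPM) the 2W pools overlapped, and DESeq2 called 0 of the 41 in either direction.

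The phagocytic microglia list did not separate 2W from 3D, with a median log2 difference of 0.19 and 1 gene (Lpl) called higher at 2W by DESeq2, with and without the epithelium-rich libraries. Clec7a was at 35.8 and 9.63 CPM at 3D, overlapping the 2W pools at 39.0 and 22.6. Of 32 interferon-stimulated genes, with a median of 0.95, 2 were called higher (Ifi44 and Trim30a), and in MHC class I 2 of 16 (Tap1 and Nlrc5). Neither list had a call without the epithelium-rich libraries. Tap1 was at 22.0 and 18.9 CPM at 3D and at 44.2 and 50.6 at 2W (log2 difference 1.25 ± 0.26; edgeR adjusted p = 0.933, DESeq2 adjusted p = 0.0115). In the glucocorticoid list 4 of 25 were called lower at 2W than at 3D and 0 higher, and 1 (Gpd1) lower without the epithelium-rich libraries. Tsc22d3 was at 271 and 315 CPM at 3D and at 83.5 and 117 at 2W (log2 difference -1.53 ± 0.23; edgeR adjusted p = 0.810, DESeq2 adjusted p = 8.07e-07).

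Against the 6W pools edgeR again called 0 genes (0%, smallest adjusted p 0.141, 1119 with an unadjusted p under 0.05), and DESeq2 called 70 higher at 2W (0.349%) and 26 lower (0.129%). The female 6W pool holds epithelial RNA as the male 2W pool does, and without both, which leaves a lone pool on each side, edgeR called 50 genes and DESeq2 49 higher and 32 lower. The edgeR count also moved from 0 when a single 2W or 6W library was left out. The lone pools left without both epithelium-rich libraries were female at 2W and male at 6W. In that fit time and sex are told apart only through the sex term, which rests on the naïve and 3D pools. Lpl, Ccl4, Cst7 and Ccl3 were the 4 of 26 phagocytic microglia genes called higher at 2W by DESeq2, and the median log2 difference of the list was 1.18. Without both epithelium-rich libraries 1 of them (Cst7) was called. At an edgeR p under 0.05 and over 2-fold 12 of the 26 were higher, against 2.15% of all genes, and 0 lower, against 0.645%. Cst7 was at 14.9 and 7.67 CPM at 6W and at 67.0 and 33.6 at 2W (log2 difference 2.16 ± 0.54; edgeR adjusted p = 0.960, DESeq2 adjusted p = 0.0180). DESeq2 called 3 of 32 interferon-stimulated genes (Ifi44, Oas1a and Trim30a) and 2 of 16 MHC class I genes (Nlrc5 and Tap1) higher at 2W, and 0 of either list without both epithelium-rich libraries.

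In the glucocorticoid list DESeq2 called 4 of 25 lower at 2W than at 6W and 0 higher, and 1 (Plin4) lower without both epithelium-rich libraries. Tsc22d3 was at 284 and 315 CPM at 6W (log2 difference -1.58 ± 0.23; edgeR adjusted p = 0.796, DESeq2 adjusted p = 7.08e-07), so that among the glaucoma and naïve pools the 2W pair alone lay under 120 CPM. Zbtb16 was at 19.7 and 55.0 CPM in the female and male 6W pools and at 12.4 and 11.2 at 2W.

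The direct contrast of the 2 injuries at 2W in MON gave the only edgeR calls, 12 genes higher in glaucoma than in crush (0.0485%) and 0 lower, with 1857 genes at an unadjusted p under 0.05. DESeq2 called 203 higher (0.992%) and 165 lower (0.806%). The edgeR count was 1 without the female crush pool and was 54 without the female 2W glaucoma pool and 14 without both epithelium-rich libraries. Apart from mt-Rnr1, the genes named here are known from neurons. Kif5a (chr10:127225696-127263348, minus strand) was at 4917 and 8425 CPM in the glaucoma pools and at 89.0 and 100 CPM in the crush pools (log2 difference 6.14 ± 0.61; edgeR adjusted p = 0.00977). Nefl was at 33.2 and 46.6 CPM after beads and at 0.510 and 0.110 after crush (log2 difference 7.26 ± 0.80; edgeR adjusted p = 0.0155). Unc13c, a regulator of transmitter release, was at 378 and 1042 CPM after beads and at 3.97 and 4.49 after crush, and Rph3a, a Rab3 effector, at 64.1 and 171 and at 0.623 and 0.739. The naïve pools were at 1593 and 1166 CPM for Unc13c and at 193 and 162 for Rph3a, so the glaucoma pools lay within or below the naïve range and far above the crush pools. The mitochondrial ribosomal RNA mt-Rnr1 was at 717 CPM in the female 2W glaucoma pool and at 0 in the male and in both crush pools, a switch that gives no usable fold.

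**Figure D5:**
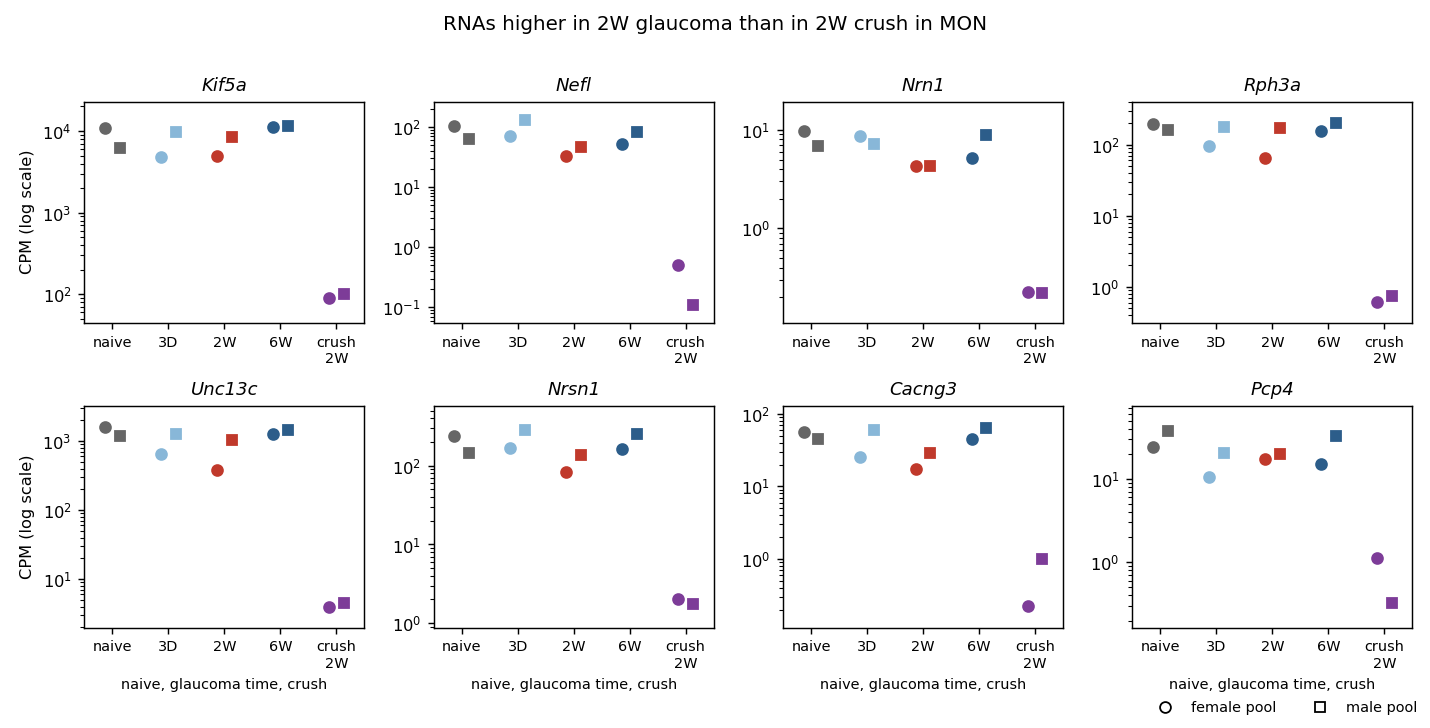
CPM (log scale) of 8 RNAs that edgeR called higher in 2W glaucoma than in 2W crush MON, in each MON pool (circles female, squares male). Kif5a lies at 4917 and 8425 CPM in the 2W glaucoma pools and at 89.0 and 100 CPM in the crush pools, and the glaucoma points of every panel lie above both crush points.

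In the same contrast cholesterol synthesis and myelin genes were higher after beads than after crush. DESeq2 called 13 of 25 cholesterol genes higher and 0 lower, with a median log2 difference of 1.08, but 0 without the epithelium-rich libraries, where the median of its estimates was 0.88. At an edgeR p under 0.05 and over 2-fold 13 were higher, against 2.46% of all genes, and 0 lower, against 2.09%. Hmgcs1 was at 460 and 603 CPM in the glaucoma pools and at 113 and 166 in the crush pools (log2 difference 1.93 ± 0.34; edgeR adjusted p = 0.155, DESeq2 adjusted p = 3.37e-06). For myelin DESeq2 called 4 of 20 higher (Mobp, Fa2h, Mbp and Aspa) and 0 lower, and 0 without the epithelium-rich libraries. Mbp was at 65170 and 66410 CPM after beads and at 27460 and 35250 after crush.

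Microglial genes were lower after beads than after crush. DESeq2 called 10 of 26 phagocytic microglia genes, 6 of 20 homeostatic microglia genes and 8 of 27 lysosome genes lower, and 0 higher in each list, with medians of -1.30, -0.63 and -0.72. In these lists it called 2, 1 and 0 genes lower without the epithelium-rich libraries. Cst7 was at 67.0 and 33.6 CPM in the 2W glaucoma pools and at 387 and 261 in the crush pools (log2 difference -2.72 ± 0.46; edgeR adjusted p = 0.143, DESeq2 adjusted p = 4.86e-06), and Ctsd at 6461 and 3713 against 23470 and 12020. Interferon-stimulated genes had a median of 0.76 in the opposite direction with 0 of 32 called by DESeq2, and MHC class I a median of -0.30 with 0 of 16. Tap1 was at 55.8 and 42.3 CPM after crush, which overlapped the glaucoma pools. The glucocorticoid list did not separate the injuries, with a median of -0.14 and 1 gene (Cdkn1a) called lower. Tsc22d3 was at 87.6 and 74.8 CPM after crush, below both naïve pools and overlapping the glaucoma pools.

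The last comparison asked whether the 2W glaucoma response of MON differed from that of UON, as an interaction over 16 naïve and glaucoma libraries of both tissues. MON and UON pools of 1 sex and time hold RNA of the same mice, and this fit treats them as independent. edgeR called 0 genes (0%, smallest adjusted p 0.692, 1595 with an unadjusted p under 0.05). DESeq2 called 80 with a higher response in MON (0.389%) and 44 with a lower one (0.214%), and the median over all genes was 0.09. Without the female or the male naïve MON pool edgeR called 2 or 1. With a term for each pool of mice (a replicate block) edgeR called 1 gene and DESeq2 116 higher and 34 lower. The edgeR gene was the mitochondrial RNA mt-Nd5, which was at 1120 CPM in the male and 0 in the female 2W MON pool, a switch that gives no usable fold. With the epithelium-rich libraries left out, edgeR called 0 and DESeq2 18 higher and 7 lower. Clec7a was at 7.18 and 6.19 CPM in the female and male naïve UON pools and at 6.80 and 3.29 in the 2W glaucoma UON pools, and the responses of the tissues differed by 3.54 ± 0.84 on the log2 scale (edgeR adjusted p = 0.745, DESeq2 adjusted p = 0.0147). Cd74 was at 136 and 192 CPM in naïve and at 132 and 116 in 2W UON, and its response differed by 1.94 ± 0.36 (edgeR adjusted p = 0.693, DESeq2 adjusted p = 0.00238). In the phagocytic microglia list 2 of 26 genes (Clec7a and Axl) were called by DESeq2, 3 with the block and 0 without the epithelium-rich libraries, and the list's median response in UON was 0.04. Cd74 was called in each of these DESeq2 fits.

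For interferon-stimulated genes the difference of responses had a median of 2.60, with 5 of 32 called by DESeq2, 19 with the replicate block and 0 without the epithelium-rich libraries, where the median of the DESeq2 estimates was 1.83. With all libraries 27 had an edgeR p under 0.05 and a response over 2-fold higher, against 3.16% of all genes (lower, 0 against 2.00%). In UON their median response was -1.29. Ifi47, an interferon-induced GTPase, was at 44.9 CPM in the female and 9.22 in the male naïve UON pool and at 14.3 and 10.5 in the 2W UON pools, so that the female naïve UON pool was far above the others. Zbp1, a sensor of Z-form nucleic acid, was at 27.7 and 12.1 CPM in naïve UON and at 11.7 and 4.49 at 2W, while in MON it was at 2.18 and 0.656 and at 7.03 and 12.3. The part of that naïve pool in the difference was not tested. The glucocorticoid list differed by a median of -0.04 between tissues. Tsc22d3 was at 373 and 325 CPM in naïve UON and at 124 and 97.9 in the 2W UON pools, a response of -1.70 ± 0.36 on the log2 scale, and the difference between tissues was 0.41 ± 0.49 (edgeR adjusted p = 0.911, DESeq2 adjusted p = 0.897). The list's median response in UON was -0.58.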

How the data were processed

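RNA-seq values of optic nerve pools were taken as deposited. Per the submitters' processing notes and the study's methods, the authors checked the paired reads with FastQC, placed them on GRCm38 by HISAT2 2.2.1, and assembled and quantified Gencode M25 genes with StringTie 1.3.0. The authors deposited estimated counts per gene, made from transcript coverage by the StringTie count script, and FPKM per library. A count stood for a median of 74.9 bases of coverage, so a read adds about 2 counts and totals overstate independent reads. The low-input kit's strand setting is not given in the sources used here, so overlapping antisense genes cannot be told apart. The FPKM served only for levels between genes. Some items are not reported here.

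Counts were rounded to whole numbers and tested with edgeR 4.0.16 (R 4.3.3): TMM scaling, genes with enough counts kept (minimum count 10, minimum total 15), quasi-likelihood tests with group and sex, Benjamini-Hochberg adjustment over all genes tested, and calls for genes past both limits (adjusted p 0.05, 2-fold). Of 55487 genes, 22960 were tested against naïve. DESeq2 1.42.0, which the study used, was run with the same model. Printed CPM values use TMM factors over the 12 MON libraries (UON: over 8), and each fold comes from its own fit. Alternatives were scaling by DESeq2 size factors, no filter, no sex term, other sets of libraries and leaving out each library. Robust dispersion, fits without the epithelium-rich libraries, DESeq2 without single libraries and the replicate block for MON minus UON were added after seeing the data. Scripts were tested on simulated data. Figures used Python 3.11.15 and matplotlib 3.10.9.

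The rule for named genes took the 15 called genes with the largest fold in each direction (the same direction in both sexes, a mean of at least 1 CPM in the higher group, an informative symbol, no mitochondrial or epithelium gene), 5 such genes in each other contrast, called members of 52 lists, up to 4 members of each list with the lowest p, tissue markers and the epithelium genes. As edgeR called 0 genes against naïve, members called by DESeq2 stood in for the called ones, and some genes were named for contrast after their values were seen. Most of the genes with the largest folds in each direction are not described above. Slamf7, left out among the higher ones, was at 0 and 0.109 CPM in the female and male naïve pools and at 3.01 and 5.01 at 2W. Tmed7, left out among the lower ones, was at 34.2 and 49.1 CPM in naïve nerve and at 4.98 and 5.76 at 2W. The members, lists and tests were chosen with earlier results of these data known. The labels give no replicate numbers that pair MON pools across groups. By the study's methods MON and UON pools of 1 sex and time hold RNA of the same mice, and their deviations from group and sex means correlated across 25807 genes at r = -0.055 (naïve), 0.094 (3D), 0.029 (2W) and 0.11 (6W). p-values measure the spread between these pools only.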

Additional observations from a re-analysis of the deposited data

Results flagged for a closer look

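Among the results, 12 genes differed between the 2 injuries at 2W in MON by a direct edgeR test of glaucoma against crush, all of them higher in glaucoma, as log2 differences with n = 2 pools a group. They were Rph3a at 7.38, Unc13c at 7.34, Nefl at 7.26, Kif5a at 6.14, Nrsn1 at 5.87, Cacng3 at 5.18, Pcp4 at 4.72, Ppfia3 at 4.26, Nrn1 at 4.25, Mapk8ip2 at 3.62, Mgarp at 3.53 and mt-Rnr1 at 16.29. The value of mt-Rnr1 depends on the prior count, since the gene was at 717 CPM in the female 2W glaucoma pool and at 0 in the male 2W glaucoma pool and in both crush pools, so it is no bound. Without the female crush pool edgeR called 1 gene in this contrast. Cacng3, an AMPA receptor auxiliary subunit, was also called lower in 2W glaucoma than in naïve nerve by DESeq2, with 55.3 and 44.8 CPM in the naïve and 17.4 and 29.1 CPM in the 2W pools. The causes were not tested.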

How the results depend on the processing

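For 2W glaucoma against naïve MON, where edgeR called 0 genes, it called 64 without the filter on low counts, 82 with only the 4 libraries compared, 7 with all 12 MON libraries, 2 with robust dispersion, 53 without both epithelium-rich libraries and 0 to 82 with single libraries left out, against 511 by DESeq2. The DESeq2 calls were 373 higher and 138 lower, became 44 and 75 without both epithelium-rich libraries, ranged from 98 to 552 higher and from 58 to 188 lower with single libraries left out, and were 181 higher without the female 2W pool. Against 3D, DESeq2 called 153 genes (80 higher, or 15 without both) and edgeR 0, or 9 without the filter, 39 without both epithelium-rich libraries and 0 to 65 with single libraries left out. Against 6W the counts were 96 by DESeq2 and 0 by edgeR, or 6 without the filter, 50 without both and 3 to 21 with single libraries left out. Against crush, DESeq2 called 368 (203 higher and 165 lower, or 27 and 30 without both epithelium-rich libraries) and edgeR 12, or 304 without the filter and 1 to 54 with single libraries left out. For MON minus UON, DESeq2 called 124 (80 higher and 44 lower, or 18 and 7 without both epithelium-rich libraries) and edgeR 0, or 0 to 2 with single libraries left out and 1 with the replicate block, a term for each pool of mice. For the contrasts within MON no paired analysis was possible because each group came from other mice. Scaling by size factors and leaving out sex kept the edgeR count against naïve at 0 and against crush at 12. The causes were not tested. Estimates of 5 named genes against naïve turned sign. Aqp3 was at -1.73 without the male 2W pool, -1.37 without both epithelium-rich libraries, and -1.80 and -1.33 in the same settings by DESeq2, and Krt8 by DESeq2 at -0.061 and -0.38. Without the female 2W pool Tmem119 was at -0.015 (edgeR) and -0.026 (DESeq2) and P2ry12 at -0.47 by both, and without the male naïve pool Tmem119 was at -0.27 and -0.26. Without the female naïve pool Kif5a was at 0.35 (edgeR) and 0.32 (DESeq2). With single libraries left out, the highest or lowest edgeR estimates on the other side were 15.02 for Aqp3, 0.41 for Tmem119, 1.48 for P2ry12 and -1.05 for Kif5a. With 2 pools a group, a difference that was not called may still be present, and low genes rest on few reads. Calls did not follow size alone, as DESeq2 called Mal but not Spp1, whose difference from naïve nerve was larger.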

Other observations

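Genes of matrix, adhesion and growth factor signaling were also counted at 2W against naïve, by DESeq2 with all libraries and without both epithelium-rich ones. Of all genes it tested with all libraries, 1.93% were called higher and 0.715% lower. These shares are the background for the DESeq2 list counts with all libraries in this section. They do not apply to the counts without the epithelium-rich libraries. At an edgeR p under 0.05 and over 2-fold lower, the share of all genes tested was 1.60%. Of 39 collagen chains tested, 4 were called higher and 1 lower, with a median log2 fold change of 0.39, and without the epithelium-rich libraries 1 higher and 0 lower. Col5a3 was at 18.8 and 22.7 CPM in the female and male naïve pools and at 74.7 and 47.5 in the 2W pools (log2 fold change 1.56 ± 0.35; edgeR adjusted p = 0.294, DESeq2 adjusted p = 0.00388), and it was called in both fits. Of 26 integrin subunits 6 were called higher and 1 lower with all libraries, and 1 higher and 1 lower without the epithelium-rich ones. Itga7, a laminin receptor chain, was at 15.9 and 11 CPM in naïve nerve and at 33.3 and 34.9 at 2W. Among 45 matrix glycoproteins and proteoglycans 2 were called higher, and among 36 matrix proteases and inhibitors 4, with 0 lower in each. Without the epithelium-rich libraries 0 of the first list were called in either direction, and of the second 1 higher and 1 lower. Plaur, the urokinase receptor gene, was at 1.66 and 1.37 CPM in naïve nerve and at 20.3 in the female and 6.65 in the male 2W pool. Plat, tissue plasminogen activator, was at 506 and 350 CPM in naïve nerve and at 934 and 1007 at 2W.

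Of 51 PI3K-Akt growth factors and receptors 6 were called higher and 1 lower, of 24 p53 targets 4 and 0, and of 39 TGF-beta and BMP genes 3 and 1. Without the epithelium-rich libraries 0 PI3K-Akt genes and 0 p53 targets were called in either direction, and 1 TGF-beta or BMP gene higher and 0 lower. Tgfbr1, a TGF-beta receptor gene, was at 35 and 26.2 CPM in naïve nerve and at 138 in the female and 56.5 in the male 2W pool. Of 37 Wnt genes and of 17 endothelial genes 0 were called in either direction by DESeq2, with 1 Wnt gene at an edgeR p under 0.05 and over 2-fold lower. Csf3r, the receptor gene of granulocyte colony-stimulating factor, was called higher with all libraries and without the epithelium-rich ones, at 19.3 and 19.2 CPM in naïve nerve and at 77.2 and 44.9 at 2W (log2 fold change 1.63 ± 0.32; edgeR adjusted p = 0.293, DESeq2 adjusted p = 0.000838).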
